A study of Mus musculus with 18 samples.

Results

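The replication-dependent core histone genes and the linker histone genes of mouse C2C12 myotubes were followed across a knockdown experiment with 3 groups of arrays. Members were all genes that had a probe set of their own and a current symbol beginning with H1f, H2ac, H2bc, H3c or H4c, or an older one of the Hist1h to Hist4h kind. That gave 29 of the 22180 genes measured by a singly named probe set: 8 linker histones (H1), 6 H2A, 8 H2B and 7 H4 genes. No H3 gene had a probe set of its own. A further 38 histone probe sets named several near-identical genes at once, among them all measured H3 genes, and are described separately without naming a gene.

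C2C12 is a mouse myoblast line that fuses into multinucleated myotubes when serum is lowered. All 18 samples were grown in medium with 20% fetal bovine serum and shifted to 2% horse serum to start differentiation. Lentivirus carrying an shRNA, a short hairpin RNA made to lower its target mRNA, was added 36 h later, and RNA was collected after another 48 h. The groups were Nup210 shRNA (6 arrays), Mef2c shRNA (6 arrays) and a control shRNA (6 arrays). Nup210 shRNA and Mef2c shRNA are called knockdowns by their labels, whether or not the target mRNA fell. Nup210 is a membrane-anchored component of the nuclear pore and Mef2c encodes a DNA-binding activator of muscle genes. How many hairpins were used, and their sequences, is not analysed here. Nothing in the labels says that the samples came from separate cultures, so p-values measure the spread between these arrays, which may be technical.

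Replication-dependent histone genes supply the H2A, H2B, H3 and H4 proteins of the nucleosome, and most H1 linker histones, while DNA is being copied. Their genes lie in clusters, usually lack introns, and make mRNAs that end in a stem-loop instead of a poly(A) tail, which ties their level to S phase. Differentiated muscle cells have left the cell cycle, and replacement histones made outside S phase then take a larger share.

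Of the 29 genes, 21 lie on chromosome 13 in the RefSeq table of GRCm38.p6, with 5 on chromosome 3, 2 on chromosome 6 and 1 on chromosome 15. All 8 genes called in either comparison with control shRNA were among the 21 on chromosome 13. The 150 bases before the start of 6 genes are shown because the results turn on the first 5, which differed between a knockdown and control shRNA, and because H4c12 was the brightest member. Sequences are from RefSeq (GRCm38.p6), read 5′ to 3′ on the gene's strand. Capitals mark matches, on either strand, to 5 short motifs. They are the octamer (ATTTGCAT), bound by Oct1 in H2B promoters, the box CCAAT, the TATA box (TATAAA), the H1 box (AAACACA) and the core bound by the H4 factor HINFP (GGTCCG). No marked match overlaps another.
H2ac10, chr13:23533725-23533874, plus strand: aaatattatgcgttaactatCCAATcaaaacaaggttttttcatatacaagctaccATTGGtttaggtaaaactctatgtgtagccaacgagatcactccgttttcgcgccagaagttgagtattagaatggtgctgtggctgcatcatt
H2bc3, chr13:23746584-23746733, plus strand: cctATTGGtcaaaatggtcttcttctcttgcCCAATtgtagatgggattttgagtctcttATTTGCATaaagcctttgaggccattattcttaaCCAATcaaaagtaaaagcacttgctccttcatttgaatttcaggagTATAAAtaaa
H1f5, chr13:21780626-21780775, minus strand: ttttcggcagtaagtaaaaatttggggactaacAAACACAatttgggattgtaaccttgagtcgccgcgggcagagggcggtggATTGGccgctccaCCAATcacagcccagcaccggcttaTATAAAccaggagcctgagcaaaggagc
H1f2, chr13:23738657-23738806, plus strand: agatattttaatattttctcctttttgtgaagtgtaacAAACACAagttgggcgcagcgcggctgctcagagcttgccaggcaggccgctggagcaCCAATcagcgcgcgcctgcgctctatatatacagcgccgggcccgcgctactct
H4c9, chr13:22041363-22041512, minus strand: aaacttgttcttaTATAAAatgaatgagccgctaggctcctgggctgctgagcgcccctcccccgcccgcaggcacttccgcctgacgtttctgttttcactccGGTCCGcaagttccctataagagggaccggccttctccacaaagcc
H4c12, chr13:21750554-21750703, minus strand: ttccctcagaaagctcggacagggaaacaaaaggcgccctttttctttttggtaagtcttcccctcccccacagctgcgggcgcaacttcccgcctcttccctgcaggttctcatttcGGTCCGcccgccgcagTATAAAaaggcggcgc
Among 27025 mouse promoters, 1.61% held the octamer within 250 bases before the start, 34.5% held CCAAT, 13.0% held TATAAA, 6.22% held the H1 box and 6.82% held GGTCCG. A promoter was found for 27 of the 29 members. The octamer was present in 5 of 7 H2B and 3 of 6 H2A promoters, and in 0 of 8 H1 and 0 of 6 H4 promoters. CCAAT was present in 6 of 6 H2A, 7 of 7 H2B, 6 of 8 H1 and 1 of 6 H4 promoters. The H1 box was found in 4 of 8 H1, 1 of 6 H2A, 2 of 7 H2B and 0 of 6 H4 promoters. GGTCCG was found in 3 of 6 H4, 1 of 8 H1, 0 of 6 H2A and 1 of 7 H2B promoters, and TATAAA in 13 of the 27. These matches describe letters in a window and were not tested against the expression values.

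Values are log2 expression values, so a difference of 1 is a doubling. Mef2c mRNA averaged 7.91 ± 0.21 in Mef2c shRNA arrays and 10.39 ± 0.16 in control shRNA arrays (SD, n = 6 each), a log2 difference of -2.48 (limma adjusted p = 2.8e-11). Nup210 mRNA was low but above background, and averaged 5.65 ± 0.11 in Nup210 shRNA arrays and 5.75 ± 0.09 in control shRNA arrays (SD, n = 6 each). That difference of -0.10 (95% interval -0.24 to 0.03) did not pass the test (limma adjusted p = 0.402). A lower Nup210 mRNA level than in control shRNA arrays was therefore not shown. Against Mef2c shRNA arrays, where it averaged 5.88 ± 0.12, Nup210 mRNA was lower in Nup210 shRNA arrays by a log2 difference of -0.23 (limma adjusted p = 0.0178). In those Mef2c shRNA arrays it was 0.13 above control shRNA arrays, which was not called. Array medians ran between 5.48 and 5.57. All 8 myotube markers were above background, as were 4 of 4 reserve myoblast and 5 of 5 fibroblast markers. Of the markers of other cell types, 2 of 5 adipocyte, 2 of 6 endothelial and epithelial, and 1 of 6 leukocyte and mast cell markers were.

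The members differed widely in brightness. Their means over the 18 arrays ran between 1.70 and 10.82 with a median of 5.33, and the median of all genes was 5.93. As a guide to background, a gene is called dim when its mean is at or below 5.47, the 95th percentile of 1394 olfactory and vomeronasal receptor genes, which muscle cells are not known to use. By that guide 14 members (48.3%) were above background and 15 were dim, beside 58.7% of all genes above it. The members just above the line were H4c14 at 5.50 and H2bc21 at 5.64, and those just below it were H1f8 at 5.33 and H1f3 at 5.31. Probe sets differ in sensitivity, so these means do not rank the genes against each other.

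A member was called when its Benjamini-Hochberg adjusted p over all 22180 genes was under 0.05 in limma, a linear model with moderated variances fitted to all 18 arrays. In Nup210 shRNA arrays 5 members were higher and 0 lower than in control shRNA arrays, where 3.05% of all genes were called higher and 5.11% lower. In Mef2c shRNA arrays 1 member was higher and 3 were lower, against 4.34% and 6.42% of all genes. Between the knockdowns, 8 members were higher and 0 lower in Nup210 shRNA than in Mef2c shRNA arrays, against 7.1% and 6.93% of all genes. The median difference of the 29 members was 0.14 for Nup210 shRNA and -0.04 for Mef2c shRNA against control shRNA, and 0.22 between the knockdowns; over all genes it was 0.02, 0.02 and -0.00. At an unadjusted p under 0.05 the members numbered 9, 8 and 16 of 29, beside 4491, 5108 and 5386 of all 22180 genes. The 3 comparisons share arrays, so their values for a gene are not independent of each other.

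**Figure D1:**
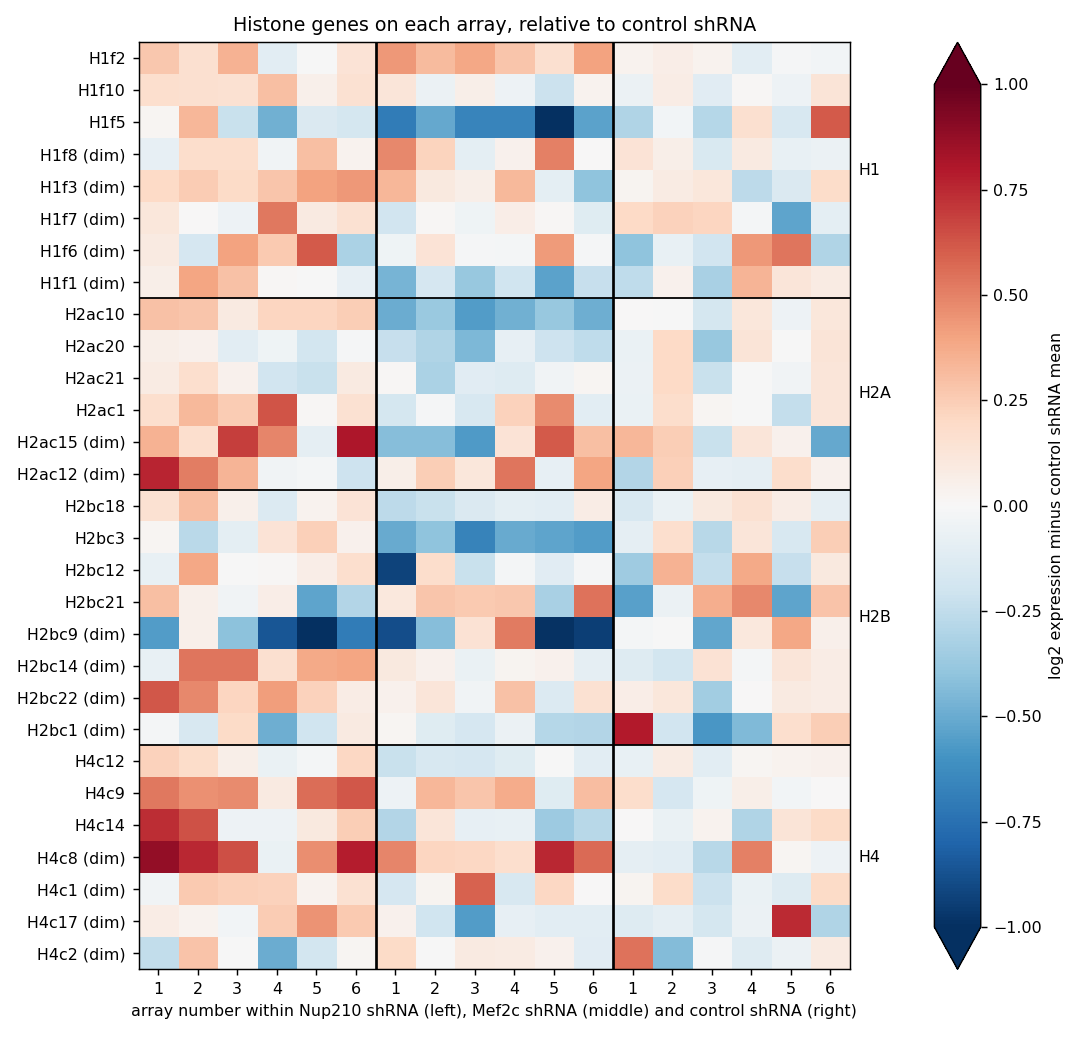
Each row is 1 of the 29 histone genes, ordered by family and by mean level, and each column 1 of the 18 arrays; colour gives the log2 value minus the mean of the 6 control shRNA arrays. H2ac10, H2bc3 and H1f5 are blue on every Mef2c shRNA array, and H4c9 is red on every Nup210 shRNA array.

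The clearest change among the linker histones was opposite for 2 somatic subtypes in Mef2c shRNA arrays. H1f5, which encodes H1.5, fell to a mean of 5.67 ± 0.21, against 6.36 ± 0.35 in control shRNA arrays, and H1f2, which encodes the widely expressed H1.2, rose to 9.17 ± 0.10, against 8.84 ± 0.06 (SD, n = 6 each). Neither passed the test in Nup210 shRNA arrays, where H1f5 averaged 6.25 ± 0.27 and H1f2 8.97 ± 0.17. The H1 promoter sequences printed above for both genes hold an H1 box and CCAAT, and that of H1f5 also holds TATAAA.

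H1f5 ran at 5.88, 6.20 and 6.70 (lowest, median and highest array) with Nup210 shRNA, at 5.27, 5.70 and 5.85 with Mef2c shRNA, and at 6.06, 6.27 and 6.98 with control shRNA. Every Mef2c shRNA array lay below every array of both other groups, while Nup210 shRNA and control shRNA arrays overlapped. The log2 difference for Mef2c shRNA was -0.70 ± 0.15 (SE), which is 0.618 times the control shRNA level (95% interval on the log2 scale -1.01 to -0.38, limma adjusted p = 0.00492). For Nup210 shRNA it was -0.11 ± 0.15 (adjusted p = 0.758), and between Nup210 shRNA and Mef2c shRNA it was 0.58 ± 0.15 (adjusted p = 0.0128).

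H1f2 gave the reverse order. It ran at 8.73, 8.99 and 9.19 with Nup210 shRNA, at 8.998, 9.19 and 9.27 with Mef2c shRNA, and at 8.73, 8.85 and 8.91 with control shRNA. Every Mef2c shRNA array lay above every control shRNA array, and the Nup210 shRNA arrays spanned both. The log2 difference for Mef2c shRNA was 0.33 ± 0.07 (SE), or 1.26-fold (limma adjusted p = 0.00346), and for Nup210 shRNA it was 0.13 ± 0.07 (adjusted p = 0.287). Between Nup210 shRNA and Mef2c shRNA it was -0.19 ± 0.07, which did not pass the test (adjusted p = 0.0685) but did under 6 of 31 alternatives.

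H1f10, the replication-independent linker histone also known as H1X, averaged 7.15 ± 0.08 in Nup210 shRNA, 6.96 ± 0.12 in Mef2c shRNA and 6.98 ± 0.09 in control shRNA arrays (SD, n = 6 each). It was called between Nup210 shRNA and Mef2c shRNA (0.18 ± 0.06 SE, limma adjusted p = 0.04), but not against control shRNA. That call was lost, with adjusted p between 0.0579 and 0.0934, when Nup210 shRNA array 1, 2, 3, 4 or 6 or Mef2c shRNA array 2, 4 or 5 was left out. H1f1, which encodes H1.1, was dim, at 4.27 ± 0.19 in Nup210 shRNA, 3.83 ± 0.15 in Mef2c shRNA and 4.15 ± 0.25 in control shRNA arrays, and was called between the knockdowns (0.44 ± 0.11 SE, adjusted p = 0.00899). H1f3, which encodes H1.3, was dim as well. Its 6 Nup210 shRNA arrays, between 5.38 and 5.63, all lay above the control shRNA arrays, between 4.93 and 5.37, but the difference of 0.29 ± 0.11 was not called (adjusted p = 0.114). It was the sole member whose Nup210 shRNA and control shRNA arrays did not overlap, a property that 5.63% of all genes had.

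The remaining linker histones are germ cell forms. H1f6 and H1f7 are known from testis and H1f8 from oocytes, and their means of 4.55, 5.07 and 5.33 were all dim. None was called in any comparison. Of the 6 germ cell histones measured, which also include the testis H2A and H2B genes H2ac1 and H2bc1 and the spermatid linker histone Hils1, limma called 0 in each comparison. At an unadjusted p under 0.05 there was 1 for Nup210 shRNA, 0 for Mef2c shRNA and 0 between the knockdowns. Only H2ac1, at 5.86, was above background, and H2bc1 was the dimmest member at 1.70.

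**Figure D2:**
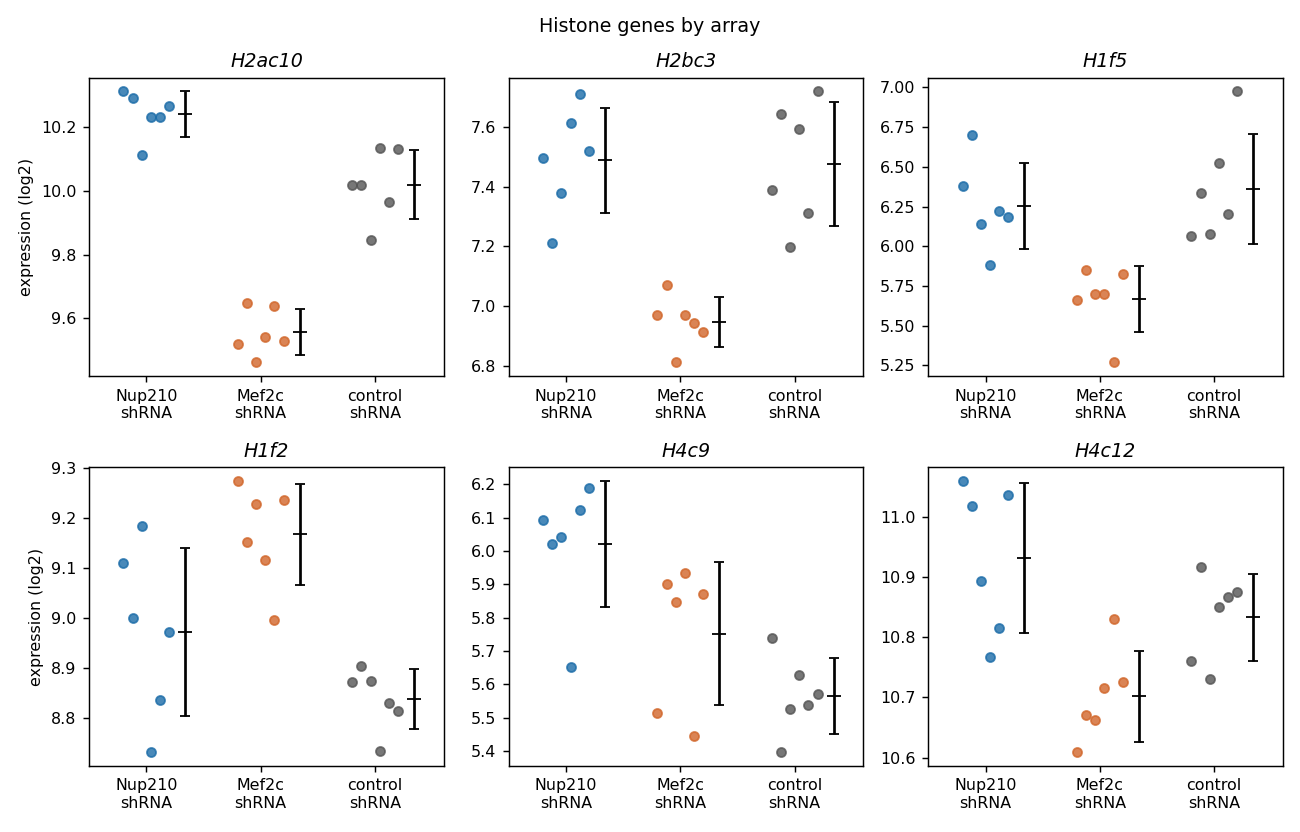
Points are the 6 arrays of each group in log2 units, each panel with its own axis, and the bar beside them is the mean ± SD. H2ac10 lay between 10.11 and 10.31 with Nup210 shRNA, between 9.46 and 9.65 with Mef2c shRNA and between 9.85 and 10.13 with control shRNA.

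H2ac10 was the member with the smallest p in the Mef2c shRNA comparison. It differed from control shRNA in opposite directions in Nup210 shRNA and Mef2c shRNA arrays. This H2A gene ran at 10.11, 10.25 and 10.31 with Nup210 shRNA, at 9.46, 9.54 and 9.65 with Mef2c shRNA, and at 9.85, 10.02 and 10.13 with control shRNA. The Mef2c shRNA arrays were below all others, and the lowest Nup210 shRNA array overlapped the highest control shRNA arrays. Against control shRNA the log2 difference was 0.22 ± 0.05 (SE) with Nup210 shRNA (limma adjusted p = 0.012) and -0.46 ± 0.05 with Mef2c shRNA (adjusted p = 1.31e-05), or 1.17-fold and 0.726-fold. Between the knockdowns it was 0.68 ± 0.05 (adjusted p = 9.71e-08). The rise with Nup210 shRNA was not called when arrays 2, 4 and 5 of that group, which an earlier analysis had given low weights, were not used (adjusted p = 0.141).

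No other H2A gene was called. H2ac20 averaged 7.47 ± 0.09 in Nup210 shRNA, 7.26 ± 0.12 in Mef2c shRNA and 7.51 ± 0.21 in control shRNA arrays (SD, n = 6 each); it is named after its values were seen, because the Mef2c shRNA difference of -0.25 ± 0.08 (SE, adjusted p = 0.0602) was called under 6 of 31 alternatives. These were without control shRNA array 3 (adjusted p = 0.00348), without Mef2c shRNA array 4 (0.0438), with dim genes left out (0.0283), with a trended robust prior (0.0288), with arrays centred on their medians (0.0414) and with the replicate block (0.024). H2ac1 averaged 6.02 ± 0.21, 5.80 ± 0.26 and 5.76 ± 0.15 in the same order of groups and was not called. H2ac21 differed from control shRNA by -0.01 with Nup210 shRNA and by -0.09 with Mef2c shRNA. H2ac12, at a mean of 1.85, was the dimmest H2A gene.

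Of the 4 H2B genes above background, H2bc3 was the one called. It ran at 7.21, 7.51 and 7.71 with Nup210 shRNA, at 6.81, 6.96 and 7.07 with Mef2c shRNA, and at 7.20, 7.49 and 7.72 with control shRNA. All 6 Mef2c shRNA arrays lay below all other arrays, and the Nup210 shRNA and control shRNA arrays covered the same range. The log2 difference for Mef2c shRNA was -0.53 ± 0.09 (SE), or 0.693-fold (limma adjusted p = 0.000713), beside 0.01 ± 0.09 for Nup210 shRNA (adjusted p = 0.965) and 0.54 ± 0.09 between the knockdowns (adjusted p = 0.000349). Its promoter, printed above, holds the octamer, CCAAT and TATAAA.

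H2bc18, the brightest H2B member, averaged 7.75 ± 0.15 in Nup210 shRNA, 7.53 ± 0.12 in Mef2c shRNA and 7.65 ± 0.12 in control shRNA arrays (SD, n = 6 each), and no comparison called it. Of the dim H2B genes, H2bc14 was called with Nup210 shRNA (0.32 ± 0.09 SE, limma adjusted p = 0.0339) and between the knockdowns (0.31 ± 0.09, adjusted p = 0.0263), and H2bc22 with Nup210 shRNA (0.34 ± 0.10, adjusted p = 0.0369). The H2bc14 call against control shRNA was lost, with adjusted p between 0.0633 and 0.0828, without Nup210 shRNA array 2, 3, 5 or 6 or control shRNA array 1, 2 or 4. Its call between the knockdowns was lost, between 0.0528 and 0.0661, without Nup210 shRNA array 2, 3, 5 or 6 or Mef2c shRNA array 3 or 6. The H2bc22 call was lost, between 0.0512 and 0.0841, without Nup210 shRNA array 1, 2 or 4 or control shRNA array 1, 3, 4 or 6. H2bc14 averaged 4.22 ± 0.24 in Nup210 shRNA and 3.89 ± 0.14 in control shRNA arrays and H2bc22 averaged 3.81 ± 0.20 and 3.47 ± 0.17, levels within the range of the receptor genes.

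Against control shRNA the H4 genes called were higher, and called in Nup210 shRNA arrays. H4c9 ran at 5.65, 6.07 and 6.19 with Nup210 shRNA, at 5.45, 5.86 and 5.93 with Mef2c shRNA, and at 5.40, 5.55 and 5.74 with control shRNA. Of the Nup210 shRNA arrays, 5 lay above every control shRNA array and array 4 lay among them; the Mef2c shRNA arrays overlapped both. The log2 difference was 0.45 ± 0.10 (SE) with Nup210 shRNA, or 1.37-fold (limma adjusted p = 0.00586), and 0.19 ± 0.10 with Mef2c shRNA (adjusted p = 0.275). Between the knockdowns it was 0.27 ± 0.10 and not called (adjusted p = 0.0803).

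H4c12 was the brightest member. It ran at 10.77, 10.96 and 11.06 with Nup210 shRNA, at 10.61, 10.69 and 10.83 with Mef2c shRNA, and at 10.73, 10.86 and 10.92 with control shRNA. The 3 groups overlapped, with the control shRNA arrays in the middle. Differences from control shRNA of 0.10 ± 0.06 (SE) with Nup210 shRNA (limma adjusted p = 0.36) and -0.13 ± 0.06 with Mef2c shRNA (adjusted p = 0.164) were not called, and the difference of 0.23 ± 0.06 between the knockdowns was (adjusted p = 0.00882). The H4c9 and H4c12 promoters printed above both hold GGTCCG and TATAAA.

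H4c14 averaged 5.74 ± 0.34 in Nup210 shRNA, 5.31 ± 0.18 in Mef2c shRNA and 5.47 ± 0.17 in control shRNA arrays (SD, n = 6 each) and was called between the knockdowns (0.43 ± 0.13 SE, limma adjusted p = 0.0356). Leaving out Nup210 shRNA array 1, 2 or 6 or Mef2c shRNA array 1, 5 or 6 ended that call (adjusted p between 0.0564 and 0.0871). H4c8 was dim, at 5.54 ± 0.34 in Nup210 shRNA, 5.36 ± 0.24 in Mef2c shRNA and 4.96 ± 0.26 in control shRNA arrays, and was called with Nup210 shRNA (0.58 ± 0.15 SE, adjusted p = 0.0243). It was no longer called without Nup210 shRNA array 1, 2 or 6 or control shRNA array 1, 2 or 3 (adjusted p between 0.051 and 0.0608). H4c2, the dimmest H4 gene at 2.75, was not called.

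**Figure D3:**
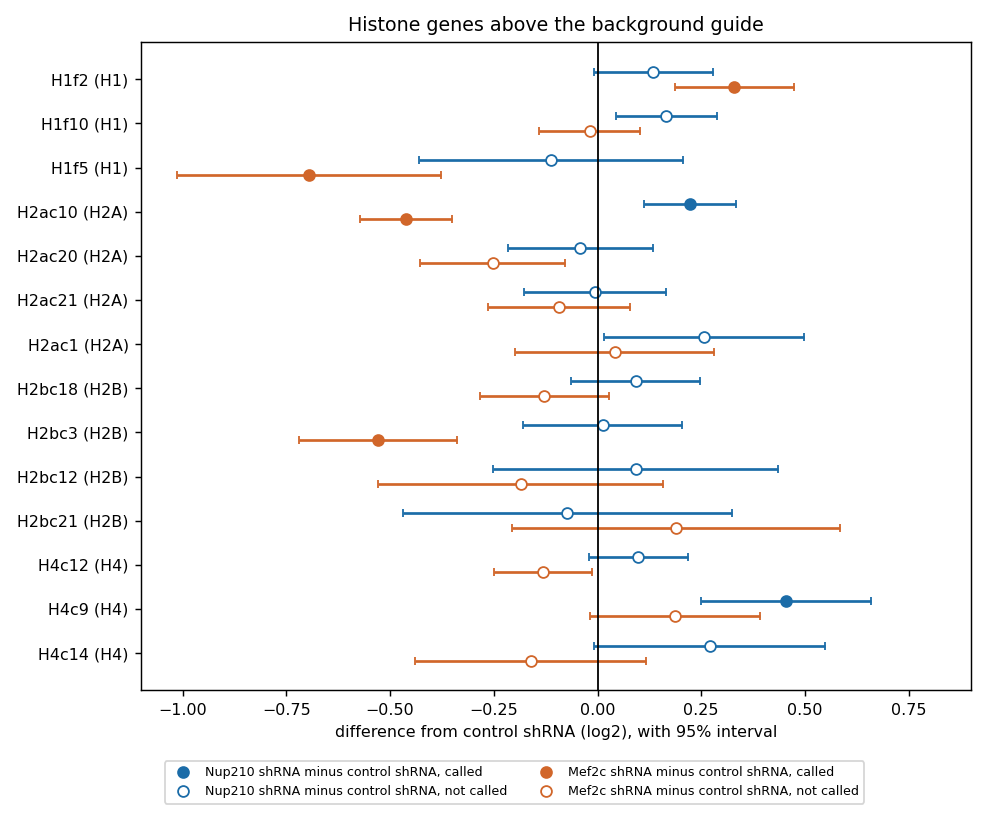
The 14 histone genes above background, by family, with the log2 difference of Nup210 shRNA (blue, upper of each pair) and Mef2c shRNA (orange, lower) arrays from the control shRNA arrays. Bars are 95% intervals and filled points passed the test; H2ac10 is filled on both sides of 0, at 0.22 and -0.46.

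Among the 14 members above background, those called with Nup210 shRNA in the fit of all genes were H2ac10 and H4c9, both higher. They made up 14.3% of the 14, close to the 13.1% of all genes above background called in either direction. The median difference of the 14 with Nup210 shRNA was 0.10, and that of all genes above background was 0.01. Those called with Mef2c shRNA were H1f2, higher, and H1f5, H2ac10 and H2bc3, lower (28.6%, beside 17.2% of all genes above background). Between the knockdowns they were H2ac10, H2bc3, H1f5, H4c14, H4c12 and H1f10, all higher in Nup210 shRNA than in Mef2c shRNA arrays (42.9%, beside 22.5%). A fit with dim genes left out also called H2bc18 and H4c9 higher there (limma adjusted p = 0.0264 and 0.0402). It called H1f2 lower in Nup210 shRNA than in Mef2c shRNA arrays (-0.19, limma adjusted p = 0.0324). Against control shRNA that fit also called H1f10 higher with Nup210 shRNA (limma adjusted p = 0.0438) and H2ac20 lower with Mef2c shRNA (0.0283). Arrays of Mef2c shRNA and control shRNA did not overlap for 4 members, H1f2 above and H1f5, H2ac10 and H2bc3 below, where 7.74% of all genes had that property. Nup210 shRNA arrays lay above all Mef2c shRNA arrays for 4 members, H1f1, H1f5, H2ac10 and H2bc3, where 8.62% of all genes did not overlap in either direction. The calls of H1f5, H2ac10, H2bc3 and H1f2 with Mef2c shRNA and of H4c9 with Nup210 shRNA held under all 31 alternatives run. The count for Nup210 shRNA against control shRNA fell by more than 1.5 times, to 2 without Nup210 shRNA array 2 or control shRNA array 1 and to 3 without Nup210 shRNA array 1 or 6 or control shRNA array 2, 3 or 4. Without Nup210 shRNA array 2 the count between the knockdowns was 5.

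The probe sets that name several genes extended the description to H3. They held 35 distinct sets of values, of which 18 had a mean above the background guide. Of the 38 probe sets, with identical ones counted separately, 8 had a mean over 10 where 1 member did. Since they had no single gene, they were read from a second fit over all 41345 probe sets. Many of them name genes in common, so they are not independent measurements. They also name 15 of the 29 members, H2ac10, H4c9 and H4c12 among them, so they and the members are not separate groups of genes. In Nup210 shRNA arrays 9 of the 18 were higher and 0 lower than in control shRNA arrays, where 1.22% of all probe sets were called higher and 2.4% lower. In Mef2c shRNA arrays 3 were higher and 4 lower, against 2.18% and 3.33% of all probe sets. Between the knockdowns 10 were higher and 0 lower in Nup210 shRNA, against 3.62% and 3.67%. These shares include dim probe sets, which are called less often, so they are low beside sets that are all above background. Of all 35 sets, dim ones included, 11 were higher and 0 lower with Nup210 shRNA. With Mef2c shRNA 3 of the 35 were higher and 4 lower, and between the knockdowns 13 were higher and 0 lower in Nup210 shRNA. The median difference of the 18 was 0.23 with Nup210 shRNA, -0.07 with Mef2c shRNA and 0.30 between the knockdowns. All 18 differences with Nup210 shRNA were positive, between 0.03 and 0.91, including those that were not called.

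By family, 0 of 5 H2A sets were called with Nup210 shRNA and 2 were lower with Mef2c shRNA. Of 6 H2B sets, 5 were higher with Nup210 shRNA, while with Mef2c shRNA 2 were higher and 1 lower. Of 4 H3 sets, 2 were higher with Nup210 shRNA and 1 was lower with Mef2c shRNA. Of 2 H4 sets, 1 was higher under both knockdowns, and a set that names H1 and H2B genes together was higher with Nup210 shRNA and not called with Mef2c shRNA. The probe sets described next were chosen after their values were seen.

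An H3 set naming 8 genes separated all 3 groups. It ran at 9.69, 9.78 and 9.82 with Nup210 shRNA, at 9.21, 9.35 and 9.43 with Mef2c shRNA, and at 9.49, 9.55 and 9.62 with control shRNA. The groups did not overlap, with Nup210 shRNA highest and Mef2c shRNA lowest. The log2 differences from control shRNA were 0.23 with Nup210 shRNA (limma adjusted p = 0.00706) and -0.22 with Mef2c shRNA (adjusted p = 0.00587). The first was not called when Nup210 shRNA arrays 2, 4 and 5 were not used (adjusted p = 0.152). The other H3 sets above background naming 8 genes differed from control shRNA by 0.05 and -0.03 with Mef2c shRNA, neither called. With Nup210 shRNA they differed by 0.36, not called, and by 0.61 (limma adjusted p = 0.0218).

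An H2A set naming 10 genes ran at 8.67, 8.85 and 8.99 with Nup210 shRNA, at 7.88, 8.01 and 8.23 with Mef2c shRNA, and at 8.41, 8.82 and 9.16 with control shRNA. Its Mef2c shRNA arrays lay below all others, as those of H2ac10 did. The log2 difference was -0.74 with Mef2c shRNA (limma adjusted p = 0.000624) and 0.04 with Nup210 shRNA (adjusted p = 0.925). With Mef2c shRNA the other H2A sets above background naming 10 genes differed by -0.40 (adjusted p = 0.00122) and by 0.19, not called. The brightest histone probe set, an H2A set naming 3 genes with a mean of 12.59, differed from control shRNA by 0.03 with Nup210 shRNA and by -0.06 with Mef2c shRNA and was not called.

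Rises under both knockdowns were seen in an H4 set naming 13 genes and in 2 H2B sets naming 3 genes each. The H4 set ran at 6.68, 6.92 and 7.13 with Nup210 shRNA, at 6.35, 6.62 and 6.73 with Mef2c shRNA, and at 5.68, 6.05 and 6.26 with control shRNA. Every array of either knockdown lay above every control shRNA array, with log2 differences of 0.91 for Nup210 shRNA (limma adjusted p = 4.95e-05) and 0.58 for Mef2c shRNA (adjusted p = 0.00173). The other H4 sets naming 13 genes were dim and not called. They differed by 0.33, 0.10 and 0.16 with Nup210 shRNA and by 0.40, -0.07 and 0.02 with Mef2c shRNA. The brighter H2B set, with a mean of 11.39, differed by 0.41 with Nup210 shRNA (adjusted p = 0.000407) and by 0.23 with Mef2c shRNA (adjusted p = 0.0219), the second call being lost without Mef2c shRNA array 1 or 3 or control shRNA array 4 (adjusted p between 0.0526 and 0.0574). The dimmer one, with a mean of 7.24, differed by 0.64 and 0.38 in the same order (adjusted p = 0.000139 and 0.00757). Both comparisons use the same 6 control shRNA arrays.

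**Figure D4:**
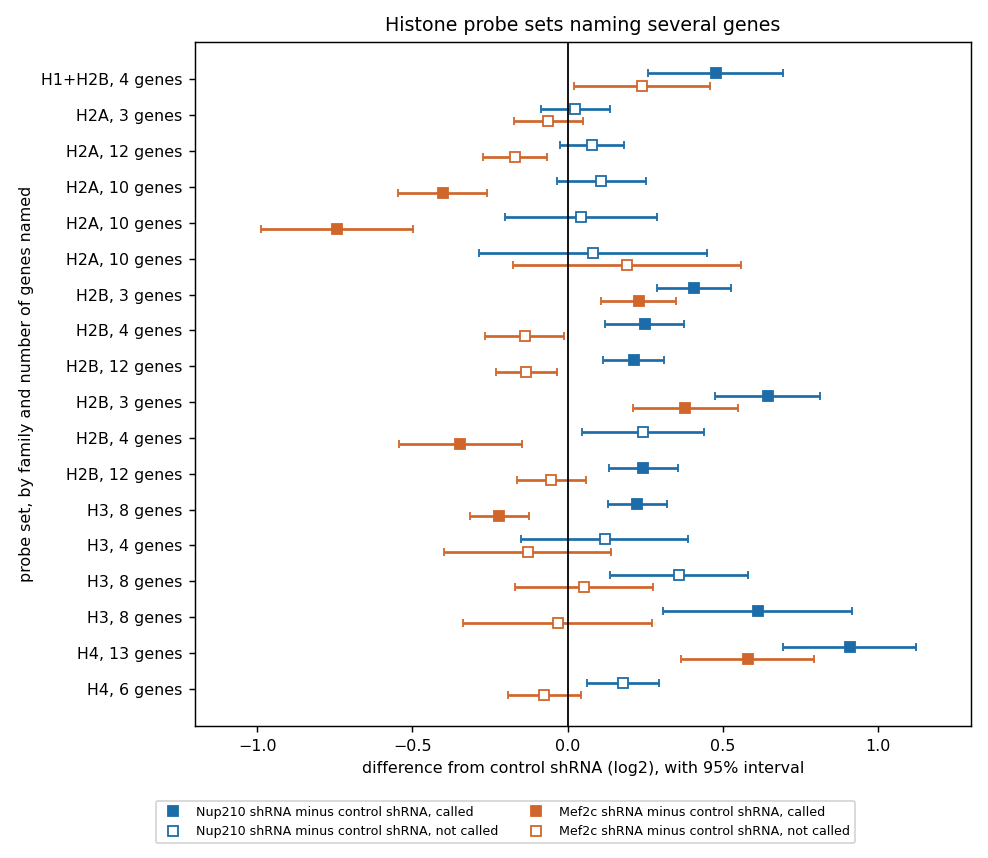
The 18 histone probe sets above background that name several genes, labelled by family and number of genes named, with the log2 difference of Nup210 shRNA (blue, upper) and Mef2c shRNA (orange, lower) arrays from control shRNA arrays and 95% intervals. Filled squares passed the test; all blue squares lie right of 0.

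Genes that make, process or escort histones and their mRNAs were read from lists. For every list that follows, the shares of all genes called in either direction are the measure. They were 8.16% with Nup210 shRNA, 10.8% with Mef2c shRNA and 14% between the knockdowns. Of all genes above background they were 13.1%, 17.2% and 22.5% in the same order. Of all 22180 genes, 4491 had an unadjusted limma p under 0.05 with Nup210 shRNA and 5108 with Mef2c shRNA. Of 18 factors that transcribe or process histone mRNA, 0 were called with Nup210 shRNA (limma, 5 at an unadjusted p under 0.05). With Mef2c shRNA 2 were lower (11.1%, near the 10.8% of all genes and below the 17.2% of those above background, as 17 of the 18 were). These were Srrt, a cap-associated RNA processing factor, at -0.17 (adjusted p = 0.0148), and Tut7, a terminal uridylyltransferase that acts in RNA decay, at -0.12 (adjusted p = 0.0316). Slbp, which binds the stem-loop at the end of histone mRNAs, averaged 8.02 ± 0.07 in Nup210 shRNA, 7.79 ± 0.09 in Mef2c shRNA and 7.90 ± 0.07 in control shRNA arrays (SD, n = 6 each). It was called between the knockdowns (0.24, adjusted p = 0.00225) and not against control shRNA.

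Of 17 histone chaperones, all above background, 1 was higher and 5 were lower with Mef2c shRNA (35.3%, beside 17.2% of all genes above background). With Nup210 shRNA 1 was higher and 1 lower (11.8%, near the 13.1% of all genes above background). Asf1b, which hands H3 and H4 to the replication fork, averaged 8.67 ± 0.09 in Nup210 shRNA, 7.97 ± 0.08 in Mef2c shRNA and 8.65 ± 0.18 in control shRNA arrays (SD, n = 6 each). Its log2 difference with Mef2c shRNA was -0.68 (limma adjusted p = 6.25e-06), that of Chaf1b, a subunit of the CAF-1 assembly factor, was -0.44 (adjusted p = 2.88e-05), and that of Daxx, an H3.3 chaperone, was -0.33 (adjusted p = 4.16e-05). Ubn1, a subunit of the HIRA complex that deposits H3.3 outside replication, went the other way. It was higher by 0.22 with Mef2c shRNA (adjusted p = 0.0114) and lower, at -0.24, with Nup210 shRNA (adjusted p = 0.00679). Supt16, a subunit of the FACT complex, was higher by 0.18 with Nup210 shRNA (adjusted p = 0.0329). Between the knockdowns 7 of the 17 were higher and 1 lower in Nup210 shRNA.

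Of 9 replacement and other histone genes outside the members, 0 were called with Nup210 shRNA (limma, 2 at an unadjusted p under 0.05). With Mef2c shRNA 1 was lower, Cenpa, the H3 variant of centromeres (-0.45, adjusted p = 0.000704). That is 11.1%, near the 10.8% of all genes and below the 17.2% of those above background, as 7 of the 9 were. Between the knockdowns 3 were higher in Nup210 shRNA: H2ax, the variant phosphorylated at DNA breaks (0.55, adjusted p = 0.000311), Cenpa (0.50, adjusted p = 0.000143) and the dim Macroh2a2 (0.43, adjusted p = 0.00289).

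Markers of proliferating cells were mostly lower with Mef2c shRNA. Of 33 DNA replication genes, 22 were lower and 0 higher with Mef2c shRNA, with a median difference of -0.26, and 14 of 17 mitosis genes were lower and 0 higher, with a median of -0.66. The largest falls were those of Ccna2, the S phase cyclin A2 (-0.76), Mcm3, a subunit of the replicative helicase (-0.51), and Cdc6, which loads that helicase (-0.48), and of the mitosis genes Bub1 (-0.87), Top2a (-0.83) and Prc1 (-0.77). With Nup210 shRNA 1 DNA replication gene was higher, Mcm7 (0.31, limma adjusted p = 0.00334), and 1 lower, Mcm2 (-0.36, adjusted p = 0.000291), and 0 of the mitosis genes were called (limma, 1 at an unadjusted p under 0.05). Between the knockdowns 25 of 33 DNA replication genes and 14 of 17 mitosis genes were higher in Nup210 shRNA and 0 of either list lower.

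The mean of the 17 mitosis genes ran between 7.45 and 7.65 in Nup210 shRNA, between 6.87 and 7.09 in Mef2c shRNA and between 7.38 and 7.80 in control shRNA arrays. The mean of the 33 DNA replication genes ran between 7.50 and 7.62, between 7.19 and 7.28, and between 7.43 and 7.64 in the same order. The mean of the 14 members above background ran between 7.17 and 7.39 in Nup210 shRNA, between 6.93 and 7.09 in Mef2c shRNA and between 7.05 and 7.30 in control shRNA arrays. For both proliferation lists every Mef2c shRNA array lay below every other array, and for the histone genes the Mef2c shRNA and control shRNA arrays overlapped. Markers of other cells were read as well. Of 5 adipocyte and 6 endothelial and epithelial markers, most of them dim, 0 were called against control shRNA. The adipocyte median was 0.12 with Nup210 shRNA and 0.10 with Mef2c shRNA, and the endothelial and epithelial median was -0.01 with each. The 6 leukocyte and mast cell markers, 5 of them dim, had a mean between 4.18 and 4.43 in Nup210 shRNA, between 4.22 and 4.46 in Mef2c shRNA and between 3.97 and 4.15 in control shRNA arrays, and 0 of them were called (limma, 2 with Nup210 shRNA and 4 with Mef2c shRNA at an unadjusted p under 0.05). Of 4 reserve myoblast markers 1 was higher and 0 lower under each knockdown, namely Myf5, a myogenic factor (0.66 with Nup210 shRNA and 0.33 with Mef2c shRNA). The median difference of the 4 was 0.06 under either knockdown, and Cd34 was at -0.31 and -0.29, not called. Of 5 fibroblast markers, Dcn, which encodes decorin, was higher under both knockdowns (0.26 with Nup210 shRNA and 0.24 with Mef2c shRNA), and Col1a1, a collagen gene, was lower with Mef2c shRNA (-0.55). The median of the 5 was 0.12 with Nup210 shRNA and 0.11 with Mef2c shRNA, with 3 and 4 of them positive. The part of cycling cells and of these other cells in the histone values was not tested, and in bulk RNA fewer cells of a kind and less RNA per cell cannot be told apart. Of the 8 myotube markers, 3 were lower with Nup210 shRNA and 2 with Mef2c shRNA, among them Ckm, muscle creatine kinase (-0.39 with Nup210 shRNA), and Myh3, embryonic myosin heavy chain (-0.39 with Mef2c shRNA). The median of the 8 was -0.04 with Nup210 shRNA and -0.05 with Mef2c shRNA, with 2 of them positive in each.

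**Figure D5:**
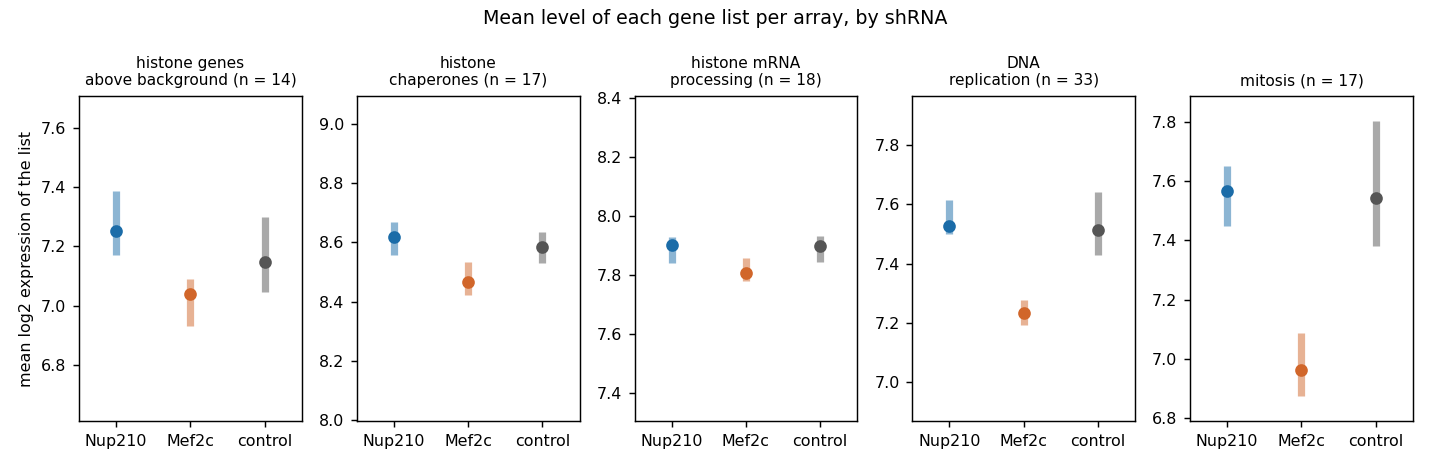
Mean log2 expression over each gene list, computed per array. Bars span the lowest to the highest of the 6 arrays of Nup210 shRNA (left), Mef2c shRNA (middle) and control shRNA (right) and points are medians; each panel spans the same 1.1 log2 units, and the mitosis list falls to 6.87 to 7.09 in Mef2c shRNA.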

How the data were processed

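RNA of 18 one-colour mouse arrays was deposited as log2 expression values per probe set, made by the authors with RMA and Partek per the submitters' processing notes. Versions, settings, genome build and target priming, which matters for histone mRNAs without poly(A), are details not given in the sources used here. Per the labels' protocols, RNA was extracted with Trizol and a column and labelled with biotin. Background correction and probe summaries in RMA can compress differences of dim genes. Column headings gave each array's sample, and 0 columns belonged to no sample.

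Of 41345 probe sets, 23521 had 1 gene symbol in the platform annotation, 1814 several and 16010 none. Symbols of 23328 were checked by Entrez identifier against RefSeq (GRCm38.p6) and 0 changed. Each gene was read from its brightest singly named probe set, by mean of the 18 arrays. Of the members, H2ac21 had a second singly named one, dim at 3.63, and 15 were also named on probe sets of several genes. Of 70 RefSeq symbols that fit the membership rule, 37 were named on probe sets of several genes only and 4, including H1f0, on neither kind and not analysed here.

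limma 3.58.1 in R 4.3.3 fitted 1 mean per group to all 18 arrays (15 residual degrees of freedom, no covariate, default prior), with Benjamini-Hochberg adjustment over 22180 genes and calls at an adjusted p under 0.05. A second fit, added after seeing the data, covered all probe sets. The number of arrays limits the precision: the median SE of a difference was 0.0799. Arrays of a group correlated between 0.991 and 0.995. No scan date or batch was used. On simulated data the fit recovered 36% of changes of 0.25, 76% of 0.5 and 98% of 1 for Nup210 shRNA against control shRNA. For Mef2c shRNA these were 42%, 75% and 98%, and 5.92% and 3.33% of calls were false in the same order of knockdowns. A missing call therefore does not show that a gene was unchanged.

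Members and gene lists were chosen with earlier results of these data known, so they are described by counts and medians beside those of all genes. Values of every array were given for members above background and called against control shRNA. Other called members, all linker histones, the brightest and dimmest of each family, germ cell histones and up to 3 called genes per direction of each list were named. Replicate numbers were not used to pair arrays. Alternatives changed the samples fitted, normalization, dim genes, probe sets, prior, weights, threshold and arrays used. Promoter motifs were searched as exact letters on both strands.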

Additional observations from a re-analysis of the deposited data

Results flagged for a closer look

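In 48 groups of 6 arrays, those of the 14 histone genes above background and the 2 targeted genes, 5 held an array that stood apart from the other 5 by more than Dixon's 95% limit, where chance flags about 1 in 20 groups. For H1f5, Mef2c shRNA array 5 was lowest at 5.267, with the next array at 5.663. H2bc12, an H2B gene that no comparison called, had 4.778 in Mef2c shRNA array 1, with the next at 5.483. H4c9 had 5.653 in Nup210 shRNA array 4, with the next at 6.022. Nup210 itself had 5.566 in control shRNA array 6, with the next at 5.749. Mef2c had 7.509 in Mef2c shRNA array 5, with the next at 7.878, the same array that was lowest for H1f5.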

How the results depend on the processing

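The count of histone members called with Mef2c shRNA against control shRNA, 4, ran between 4 and 6 when single arrays were left out and kept within 1.5 times under every other alternative run. With Nup210 shRNA against control shRNA the count of 5 ran between 2 and 6 on leaving out single arrays. It was 3 without dim genes, 3 with a trended robust prior, 1 at an adjusted p under 0.01, 2 without Nup210 shRNA arrays 2, 4 and 5, 3 without control shRNA arrays 4 and 6, and 3 in the fit of all probe sets. Between Nup210 shRNA and Mef2c shRNA the count of 8 ran between 5 and 10 on leaving out single arrays, and was 4 at an adjusted p under 0.01, 4 without Nup210 shRNA arrays 2, 4 and 5, and 5 in the fit of all probe sets. With replicate number as a block the 3 counts were 5, 5 and 11. The numbers were not taken to pair arrays, since 6 of 18 comparisons of same-numbered arrays, not all, had deviations that correlated over 0.1 (between -0.178 and 0.223). In 11 of the 18 comparisons an array correlated best with its own number in the other group, a hint from the data and not the design. Members whose Nup210 shRNA and control shRNA arrays did not overlap, 1, numbered 0 after renewed quantile normalization, 0 after centring arrays on their medians, 6 without Nup210 shRNA arrays 2, 4 and 5, 2 without control shRNA arrays 4 and 6, and between 1 and 2 on leaving out single arrays. For Mef2c shRNA against control shRNA this count ran between 4 and 5, and between the knockdowns between 4 and 5, or 8 without Nup210 shRNA arrays 2, 4 and 5. Members above the background guide numbered 14, and 8 with the 99th percentile of receptor genes.

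Several-gene histone probe sets called with Nup210 shRNA, 9, ran between 7 and 10 on leaving out single arrays, and were 4 at an adjusted p under 0.01 and 5 without Nup210 shRNA arrays 2, 4 and 5. With Mef2c shRNA the 7 ran between 5 and 8 and were 4 without control shRNA arrays 4 and 6, and between the knockdowns the 10 ran between 10 and 13; these alternatives were chosen after seeing the data. With the replicate block they were 10, 7 and 11. A stricter threshold lowers a count by construction. Leaving out arrays lowered some counts and raised others, and the cause of these and the other shifts was not tested. Over the alternatives other than leaving out single arrays, genes called with Mef2c shRNA ran between 0 and 6 among mRNA processing factors (2 as reported), between 3 and 7 among chaperones (6) and between 1 and 2 among replacement histones (1). With Nup210 shRNA they ran between 0 and 1, 0 and 4 and 0 and 1 in these lists (0, 2 and 0), between 1 and 3 among DNA replication genes (2) and between 0 and 1 among mitosis genes (0). Between the knockdowns they ran between 1 and 3 among processing factors (2) and between 5 and 10 among chaperones (8). No called member or probe set changed sign. Differences of dim genes can be compressed, and the dim members hold 3 of the 5 calls with Nup210 shRNA. Of all genes called higher with Nup210 shRNA, 602 of 676 were above background. The median difference with Nup210 shRNA was 0.15 for the 15 dim members and 0.10 for the 14 above background.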
